A study of Homo sapiens with 2 samples.

Results

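The HERV-H driven pluripotency transcripts ESRG, LINC-ROR, HHLA1 and ABHD12B were examined in 2 substates of H9 human embryonic stem cells. Members were the probes on the array, other than control probes, whose RefSeq accession belongs to one of these 4 genes. The rule gave 4 of the 22439 genes that had a probe matched in this way, and 6 of the 58201 probes on the array. ESRG and LINC-ROR had 1 probe each, and HHLA1 and ABHD12B had 2 probes each. Each of the 6 probes was printed as a single spot.

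HERV-H is a family of endogenous retroviruses, the remains of ancient infections of the germ line, and its long terminal repeat LTR7 acts as a promoter in human pluripotent stem cells. Transcription factors of the pluripotency network bind LTR7 and drive long noncoding RNAs and chimeric transcripts that run on into neighbouring genes. ESRG and LINC-ROR are such noncoding RNAs, while HHLA1 and ABHD12B are protein-coding genes for which transcripts with a HERV-H repeat have been described in pluripotent or embryonal carcinoma cells.

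The H9 line was grown in the serum-free medium TeSR-E8. Per the methods of the study, cells were kept on vitronectin and moved to Matrigel, an extracellular matrix preparation, at passage 35. Substate 1 cells were taken at passage 35 and substate 2 cells at passage 50. The source names of the samples give line, passage and substate but no matrix, so the matrix under the substate 1 cells is not known here. Passage, matrix or time on Matrigel, and substate cannot be told apart. The study named the substates after colony shape and after staining for vimentin, a mesenchymal protein, and for R-10G, a keratan sulphate epitope of the cell surface. Each substate had 1 single-colour Agilent array, so the differences below have no replicate check, and the substates could not be tested against each other.

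A difference is substate 2 minus substate 1 in log2 of the processed signal after the 75th percentile of each array was subtracted, and the Z-score places it among all 58201 probes. The limit was a Z-score of 2 in either direction, which lay at a difference of 1.34 upwards and -1.19 downwards. A probe was called measured on an array where the scanner software flagged it as well above background. Of the spots that were not controls, 34972 (57.4%) were so flagged for substate 1 and 33334 (54.7%) for substate 2. All 10 pluripotent stem cell marker genes with a probe were measured on both arrays, as the label of embryonic stem cells implies. Of 6 neural progenitor markers, 2 were measured in substate 1 and 5 in substate 2, and PAX6 in neither. Of 7 fibroblast markers the same number, 4, was measured on each array, and DCN, LUM and COL3A1 were measured on neither.

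ESRG, a long noncoding RNA abundant in human pluripotent stem cells, was the one member measured on both arrays. The signal of ESRG was 28779 ± 2878 in substate 1 and 21654 ± 2165 in substate 2, where the error is the one that the scanner software models for a single spot. On the normalised log2 scale the levels were 6.52 and 6.30. The difference was -0.22, or 1.17-fold lower in substate 2, with a Z-score of -0.47. The modelled error of this difference was 0.20 on the log2 scale, so it was 1.08 times its modelled error. The SD of a difference between single spots was smaller, 0.069, among probes printed 10 times with every spot well above background. That SD holds what differs between spots of an array and leaves out culture, RNA extraction and labelling. Among all 29883 probes measured on both arrays, 7030 (23.5%) differed as far or farther downwards. In bulk RNA, fewer cells that make ESRG and less ESRG RNA per cell cannot be told apart.

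LINC-ROR, a noncoding RNA that promotes reprogramming to pluripotency, was measured on the substate 2 array only. The signal of LINC-ROR was 9.13 ± 4.33 in substate 1 and 24.9 ± 5.21 in substate 2. The normalised log2 levels were -5.10 and -3.47, a difference of 1.63 with a Z-score of 2.47. Both signals were faint, and the median pixel stood 17.5 and 35 units over the local background on the arrays of substate 1 and substate 2. As a bound, LINC-ROR was at least 1.96-fold higher in substate 2, just short of 2-fold. The bound was 2.02-fold to 2.03-fold after centring on the median, quantile normalisation or loess, which puts it past 2-fold. The value of substate 2 is set there against 14.5, the lowest signal that carried the flag in substate 1. Spots without the flag reached 21.1 in substate 1 and 24.95 in substate 2, so the flag has no sharp limit of signal. The bound also leaves out the modelled errors. Here and below, "at least" therefore refers to that lowest flagged signal and is no firm floor. One of the 308 negative control spots, which hold no human target, was as bright as LINC-ROR on the substate 2 array. Only 4 to 6 replicated probes had no spot well above background, and the SD of a difference between their single spots was 0.65. Probes measured on neither array had a median difference of 0.27, so dim probes as a whole lay on the higher side in substate 2. Of the 828 probes measured on the substate 2 array only, which were bound to be higher there, 306 (37.0%) differed as far as LINC-ROR or farther.

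HHLA1, named for its association with a HERV-H repeat, was measured on neither array by either of its probes. The first HHLA1 probe gave 4.23 ± 4.24 in substate 1 and 4.21 ± 4.23 in substate 2. Its difference was 0.18 in normalised log2, with a Z-score of 0.18. The second had 11.4 ± 3.37 and 3.39 ± 3.40, a difference of -1.56 and a Z-score of -2.58. The normalised differences of these probes had opposite signs, but before centring the signal of the first was no higher in substate 2. The scanner software did not call the first probe positive and significant on either array, nor the second on the substate 2 array. Spots without that call made up 23.0% and 25.5% of the spots on the arrays of substate 1 and substate 2, and 99.9% or more of them carried a signal within 5% of their own modelled error. The difference of 0.18 therefore sets 1 value that stands for the error against another, so its sign shows no direction. The difference of -1.56 sets a dim signal against such a value, and no fold is given.

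ABHD12B, which encodes a protein with an alpha/beta hydrolase fold, was likewise measured on neither array. Its first probe gave 8.97 ± 3.12 in substate 1 and 4.71 ± 3.23 in substate 2. The difference was -0.74, with a Z-score of -1.28. Its second probe had 11.4 ± 3.10 and 9.10 ± 3.14, a difference of -0.14 and a Z-score of -0.34. Both differences were smaller than their modelled errors, at -0.75 and -0.22 times that error. The array also holds 5 probes for noncoding transcripts named after the neighbourhood of ABHD12B, which are other transcripts and no members. Of these 1 was measured on both arrays, with a difference of 0.17, and 4 were measured on neither.

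The sequence before the RefSeq start of ABHD12B is shown because the probes are assigned by RefSeq accession, so this is the start that the assignment implies. Whether this window holds or lies near an LTR7 was not examined, so it is not shown as a HERV-H promoter. No such window was available for ESRG, LINC-ROR or HHLA1. It covers 250 bases at chr14:50871803-50872052 of GRCh38.p14, plus strand, with its 1 match to the GC box GGGCGG in capitals.
ABHD12B: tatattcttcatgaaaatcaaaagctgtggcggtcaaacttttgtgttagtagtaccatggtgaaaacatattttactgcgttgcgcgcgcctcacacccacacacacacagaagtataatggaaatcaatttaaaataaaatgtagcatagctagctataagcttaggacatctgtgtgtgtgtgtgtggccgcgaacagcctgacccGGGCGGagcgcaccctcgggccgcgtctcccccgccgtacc
G and C made up 48.4% of these bases, against a median of 58% over the windows of all RefSeq promoters. The GC box, searched on both strands, was present in the same window of 42.6% of the 35116 RefSeq promoters. No match was found to the TATA box TATAAA (10.7% of promoters), to CCAAT (32.0%) or to the octamer ATGCAAAT (1.63%) on either strand.

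**Figure D1:**
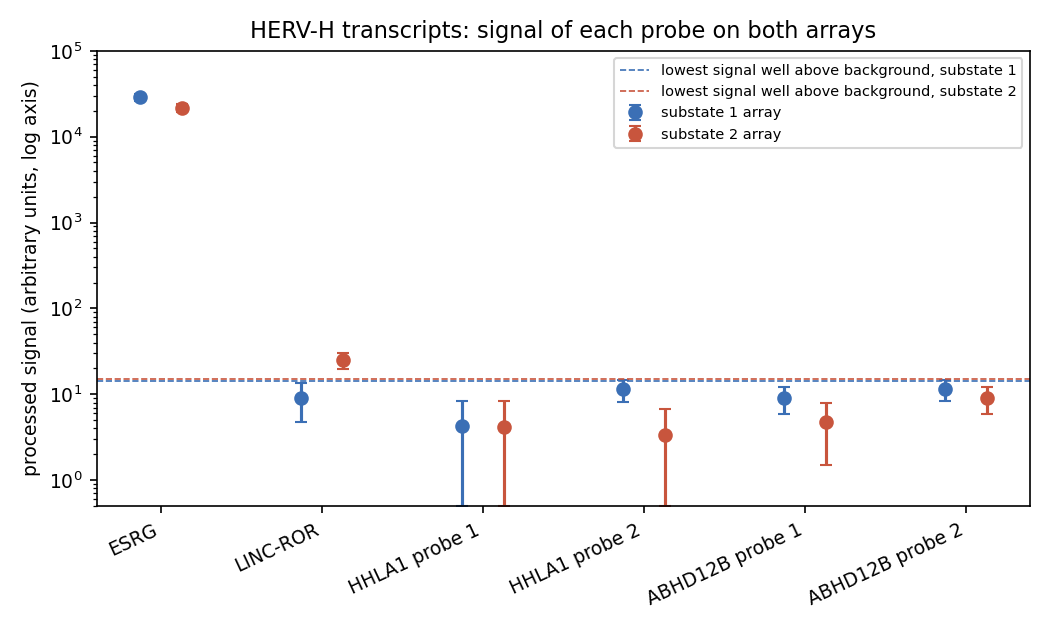
Processed signal of the 6 probes on both arrays, on a log axis in arbitrary units, with bars for the error modelled by the scanner software; bars that reach below the axis end at its edge. ESRG stood at 28779 and 21654, LINC-ROR alone crossed the dashed lines (lowest signal well above background on each array) on 1 array, and the 4 probes of HHLA1 and ABHD12B stayed below them.

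Counted together, 4 of the 6 probes were lower in substate 2 and 2 were higher, with a median difference of -0.18, against 0.16 over all probes on the array. Over all probes measured on neither array the median was 0.27. As 4 of the 6 probes were of that class, the tally and the median show no direction of the set. After the normexp background correction the tally turned, with 2 lower, 4 higher and a median of 0.05. Past the Z-score limits lay 2 of the 6 probes, LINC-ROR upwards and the second HHLA1 probe downwards, and neither was measured on both arrays. Of all probes 3.03% lay past the upper limit and 3.3% past the lower limit. Among the 25035 probes measured on neither array 9.35% lay past either limit, and 1 of the 4 member probes of that class did. None of the 2 members measured on at least 1 array passed 2-fold. The background of that rule was 1.55% of 33166 probes upwards and 1.67% downwards. In the histograms of all differences, ESRG lies within the bulk of the probes measured on both arrays, while the second HHLA1 probe lies in the left tail of the dim probes.

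**Figure D2:**
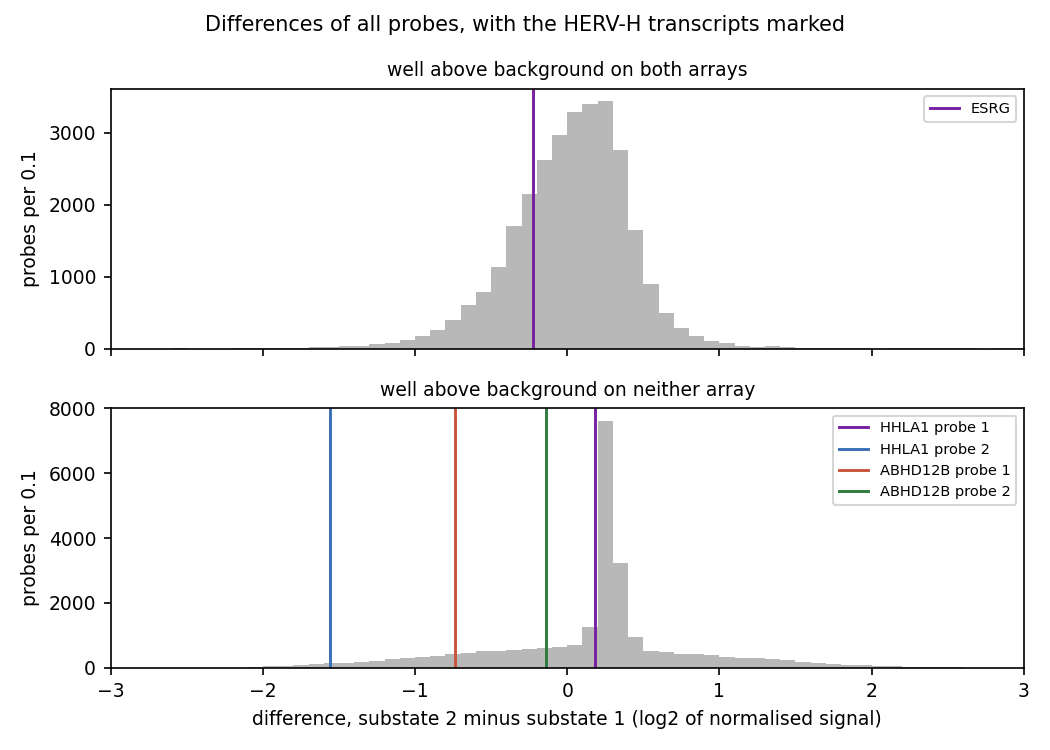
Number of probes per 0.1 of difference (substate 2 minus substate 1, log2 of normalised signal), for probes well above background on both arrays (top) and on neither (bottom), with the members as vertical lines. ESRG stands at -0.22 and the 4 probes of HHLA1 and ABHD12B at 0.18, -1.56, -0.74 and -0.14; LINC-ROR, measured on 1 array, falls in neither panel.

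Other transcripts with a described HERV-H link, where measured on both arrays, were mostly somewhat lower in substate 2, as ESRG was. Of 12 such genes 9 had a probe. For 6 of them both arrays gave a value, with 5 lower, 1 higher and a median difference of -0.22. Over all 16001 genes measured on both arrays the median was 0.08, and 40.2% were lower. The median of the 6 genes stayed between -0.25 and -0.18 under other scalings, and none of them passed 2-fold, against 0.931% of all genes upwards and 1.07% downwards. The noncoding RNA LINC00678 had levels of 3.77 and 3.19 (substate 1, then substate 2), a difference of -0.58. KLKB1, the gene of plasma prekallikrein, had -0.51 and -0.96, a difference of -0.46. SCGB3A2, a secretoglobin gene, had 1.22 and 0.94, and OC90, an inner-ear matrix gene joined to HHLA1 in read-through transcripts, had -3.78 and -3.95. OC90 was thus dim though measured, and on the substate 2 array it was dimmer than LINC-ROR at -3.47. The 2 probes of LINC00545 differed by -0.04 and -0.15. RPL39L, a ribosomal protein gene, was the exception, with 3.53 and 3.77. Whether its probe also binds the near-identical RPL39 was not tested.

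HHLA2 was measured by 1 of its 2 probes on the substate 1 array only, with a difference of -0.34. LINC00458 and LINC01108 were measured on neither array, although 1 of the 2 dim probes of LINC01108 had a Z-score of -3.21. CALB1, HHLA3 and HPAT5 had no probe matched here. With ESRG added, 6 of 7 HERV-H linked genes measured on both arrays were lower, and their differences ran from -0.58 to 0.23.

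Transcription factors and cofactors reported at LTR7 had more genes higher than lower in substate 2, as all genes did. Of 10 genes 9 were measured on both arrays, with 7 higher and 2 lower in substate 2 and a median of 0.17, which ran from 0.08 to 0.21 under other scalings. Of all genes measured on both arrays 59.8% were higher. NANOG, a core pluripotency factor, had levels of 5.25 and 5.67, a difference of 0.42. POU5F1, which encodes OCT3/4, differed by 0.29 and 0.24 at its 2 probes, and SOX2 by 0.26. Whether the POU5F1 probes also bind copies of the gene elsewhere in the genome was not tested. TFCP2L1, a factor of the naive state, had -1.40 and -1.74, a difference of -0.35. KLF4 was measured on the substate 1 array only. No gene of this list passed 2-fold or a Z-score limit.

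Among the silencers of endogenous retroviruses, 16 of 17 were measured on both arrays, with 13 higher, 3 lower and a median of 0.19 (0.08 to 0.23 under other scalings). Of all genes 59.8% were higher, with a median of 0.08. Past 2-fold lay 1 silencer upwards and 1 downwards, against 0.931% and 1.07% of all genes. UHRF1, which brings DNA methylation to replicated DNA, differed by 1.06 and 1.02 at its 2 probes, which is 2.09-fold and 2.03-fold higher in substate 2. TRIM28, the corepressor that zinc finger repressors recruit, had levels of 5.34 and 5.76, a difference of 0.42. DNMT3A differed by 0.49, 0.36 and -0.07 at its 3 probes. ATF7IP, a partner of SETDB1, differed by 0.15 and -0.18, and DNMT1, which maintains DNA methylation, by 0.19. ZFP57, a zinc finger repressor known for keeping imprints, had -1.65 and -3.79, a difference of -2.14 with a Z-score of -3.50 and 4.41-fold lower in substate 2. ZNF534, a zinc finger gene reported to act on HERV-H, was measured on the substate 1 array only, with a Z-score of -3.18 and a bound of at least 1.26-fold lower. Its levels were dim, at -3.87 and -5.81. SETDB1, which methylates histone H3 at silenced repeats, differed by 0.11, 0.04 and 0.03.

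**Figure D3:**
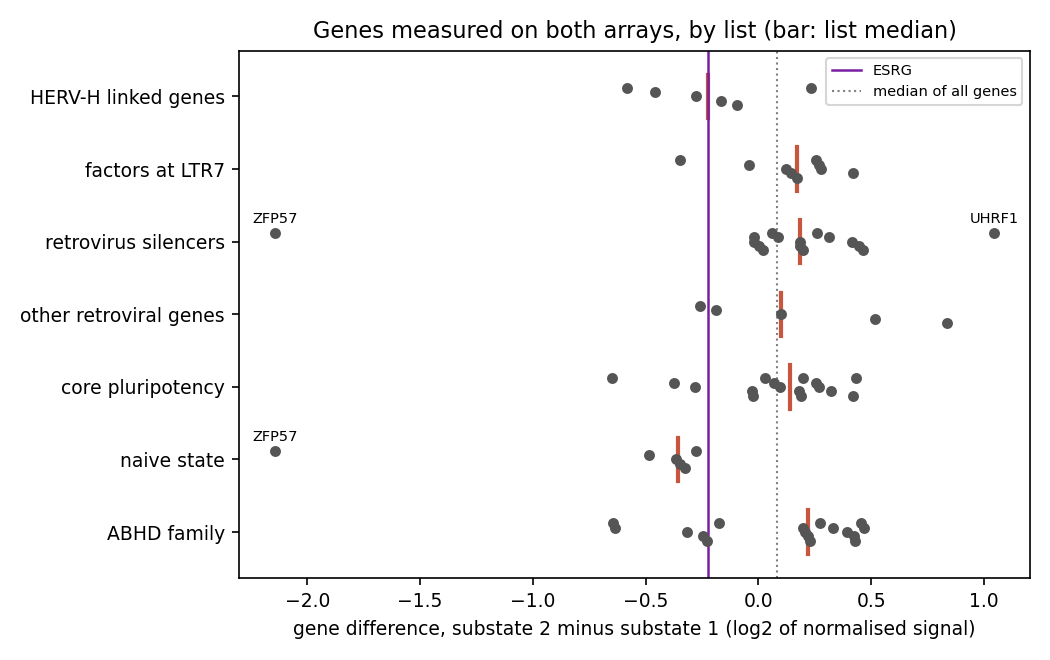
Difference of each gene measured on both arrays (points, mean over its probes, log2 of normalised signal, substate 2 minus substate 1), by list, with the list median as a bar, ESRG as a solid line and the median of all genes as a dotted line. The HERV-H linked genes centre at -0.22 and the factors at LTR7 at 0.17; ZFP57, which 2 lists hold, and UHRF1 lie beyond 2-fold.

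LINC-ROR is known as a sponge of the microRNA miR-145, which targets the messengers of POU5F1, SOX2 and KLF4. The microRNA is shown because LINC-ROR and those messengers are described as binding it through its seed, bases 2 to 8, in capitals. Its mature form in RefSeq, from the plus strand of chromosome 5, reads as follows.
hsa-miR-145-5p: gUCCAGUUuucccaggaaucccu
Of the 7 genes listed as partners of LINC-ROR 4 were measured on both arrays, and all 4 were higher in substate 2, between 0.26 and 0.56, where 59.8% of all genes were. PTBP1, an RNA-binding protein gene, had levels of 1.21 and 1.76, a difference of 0.56. KLF4, also of this list, was measured on the substate 1 array only and was dim. Its levels were -4.20 and -4.77, a difference of -0.58. CDKN1A, a cell cycle inhibitor gene, was measured on the substate 1 array only and had levels of -3.69 and -6.19. Its Z-score was -4.07, and as a bound it was at least 1.42-fold lower in substate 2. That Z-score sets a dim signal against a value that was not well above background. POU5F1, SOX2 and NANOG of this list are also among the factors at LTR7. MIR143HG, the host gene of miR-145, had no probe matched here.

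Of the alpha/beta hydrolase domain genes related to ABHD12B, 17 of 19 were measured on both arrays, with 11 higher, 6 lower and a median of 0.22. The share of all genes that were higher was close to this, at 59.8%. None of the 17 passed 2-fold. ABHD12, the closest relative by name, had levels of 1.13 and 0.90, a difference of -0.23. Genes made from other endogenous retroviruses had 5 members on both arrays, with a median of 0.10, and the placental syncytins ERVW-1 and ERVFRD-1 were measured on neither. Core genes of primed pluripotency, all 16 with a probe measured on both arrays, had a median of 0.14, which ran from -0.04 to 0.18 under other scalings and so did not keep its sign. Of the naive-state genes 6 were measured on both arrays, with a median of -0.36. All 6 were lower, where 40.2% of all genes were. ZFP57 and TFCP2L1, named above, are 2 of these 6. Noncoding RNAs of stem cells with no HERV-H link listed had a median of -0.03 over 7 genes, and this too changed sign under other scalings. Of these 3 were higher and 4 lower, from -0.57 for LNCPRESS2 to 0.56 for MEG3. Falls of the size seen among the HERV-H linked genes were thus found here too. Markers of other cell types differed in the same comparison. Of 6 neural progenitor markers FABP7 was 2.72-fold higher in substate 2, while NES differed by 0.33 and 0.43 and PAX6 was measured on neither array. POU3F2 (Z-score 5.78, at least 13.3-fold), SOX1 (4.64, at least 1.71-fold) and HES5 (3.13, at least 1.90-fold) were measured on the substate 2 array only. On that array POU3F2 had a level of -0.67, but SOX1 had -3.67 and HES5 had -3.52, both a little dimmer than LINC-ROR at -3.47. Of 6 trophoblast markers 2 were measured in substate 1 and 3 in substate 2. KRT7 and CGB3, measured on both arrays, differed by 0.16 and 0.18. CGA, measured on the substate 2 array only, had a Z-score of 4.55 and a bound of at least 2.12-fold higher. CGA was dim as well, at -6.31 and -3.35. The Z-scores of SOX1, HES5 and CGA thus set a dim signal against a value that was not well above background. Of 5 mesoderm markers 0 and 1 were measured, and MESP1 was at least 2.21-fold higher. Of 5 endoderm markers 3 and 2 were measured. FOXA2 was 1.71-fold higher, and APOA1 differed by 0.39 at its probe measured on both arrays. GATA4 went the other way, with 1 probe measured on the substate 1 array only and a difference of -0.85. The part of these cells in the values of the HERV-H transcripts was not tested.

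The genes that lie beside the members on the chromosome were read as well, since HERV-H transcripts can run on into neighbouring genes. Neighbours were taken by position, passing over genes with no probe. Strand was not compared, so whether a member could run on into any of them was not examined. ESRG lies within the span of CACNA2D3, a calcium channel subunit gene whose 2 probes differed by -0.72 and -0.29. CACNA2D3-AS1, the nearest gene with a probe on the other side, was measured on the substate 2 array only, at least 1.80-fold higher. Next to LINC-ROR, WDR7 differed by 0.29 and BOD1L2 was measured on neither array. The neighbours of HHLA1 were OC90 and the potassium channel gene KCNQ3, which both differed by -0.17. Next to ABHD12B, NIN, a centrosome protein gene, differed by -0.20 and -0.30 and PYGL, a glycogen phosphorylase gene, by -0.09. None of these neighbours passed 2-fold or a Z-score limit.

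The differences were recomputed under other ways of processing. ESRG kept its sign, with differences between -0.41 and -0.18. LINC-ROR remained higher, but after a normexp background correction its difference was 0.42 and its bound 1.25-fold. That correction adds an offset to every signal, which shrinks the differences of dim signals most. The second HHLA1 probe, at -1.56, stood at 0.00 after that correction. In the plot of the alternatives the first HHLA1 probe went the other way under normexp, from 0.18 to 0.33, the first ABHD12B probe stood at -0.06 and the second at 0.09, and ESRG stood at -0.24.

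**Figure D4:**
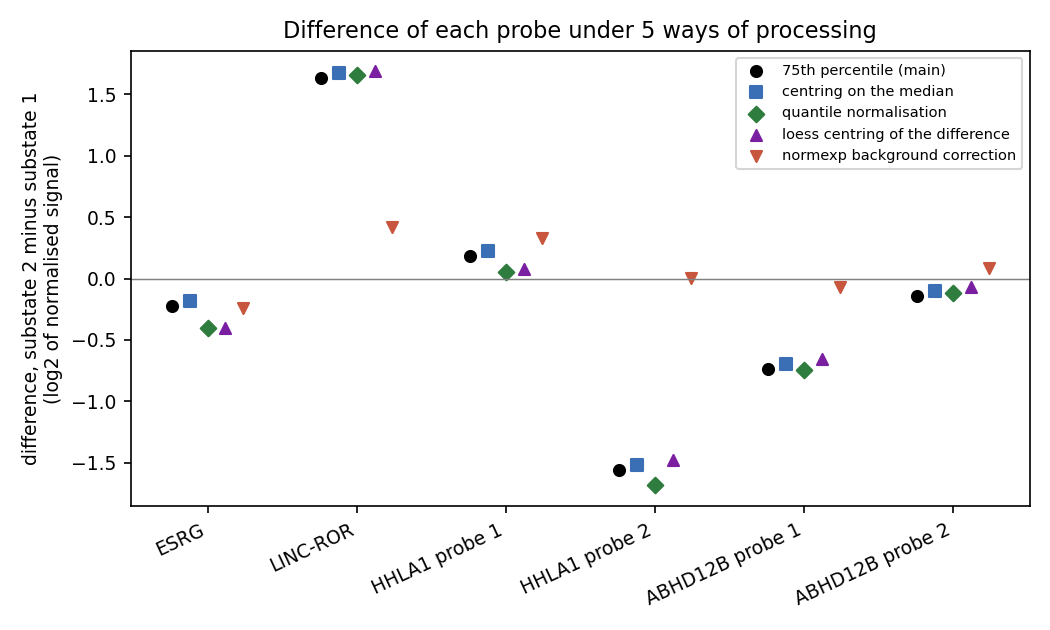
Difference of each of the 6 probes (substate 2 minus substate 1, log2 of normalised signal) under 5 ways of processing, with a marker for each. ESRG lies between -0.41 and -0.18 in all of them, and LINC-ROR lies between 1.63 and 1.69 in 4 of them and at 0.42 after normexp.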

How the data were processed

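The authors deposited the scanner files of both arrays with an intensity per spot, made, per the file headers, with Feature Extraction 11.5.1.1 (protocol GE1_1105_Oct12) for array design 072363, annotated on hg19. A deposited table of log2 values equalled those computed here up to 1 constant per array (within 0.01 for 100% of probes). Signals were floored at 1, logged, averaged over the spots of a probe without outlier spots, and centred on the 75th percentile of the array. A probe counted as well above background unless fewer of its spots were flagged so than not, a rule set after the data were seen. Of 58201 probes, 31104 (53.4%) were named through RefSeq accessions (GRCh38.p14), used for names and neighbours only. Both arrays lay on 1 slide and in 1 scan. Their number limits the precision. Every probe of the 4 genes is given. Genes of a list are given by counts, with values for those past 2-fold or a Z-score limit and up to 5 others in list order, and neighbours are the nearest genes with a probe. Gene values are means over probes measured on both arrays. The members and lists were chosen with earlier results of these data known. Normexp (limma 3.58.1, offset 50) used the median pixel signal. The ranges of list medians under other scalings cover median centring, quantile normalisation and loess, and leave out normexp. The functions for scaling, Z-scores and bounds were tested on simulated data. One further gene considered as a partner of LINC-ROR is not reported here.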

Additional observations from a re-analysis of the deposited data

How the results depend on the processing

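Loess centring (span 0.3), quantile normalisation, median centring, normexp, the deposited log2 table, outlier spots kept and 2 other Z-scores were tried. ESRG was -0.40 under quantile and -0.41 under loess. Under normexp LINC-ROR was 0.42 and the mean of the HHLA1 probes 0.17. The number of probes past the Z-score limits was 0 under normexp and 0 with the Z-score over probes measured on both arrays, against 2. The number past 2-fold was 1 under median centring, quantile and loess, against 0, because the bound of LINC-ROR was then 2.02-fold to 2.03-fold. It was also 1, with a bound of 3.10-fold, where a probe counted as well above background if any of its spots was. That rule was tried first, and both it and the rule used were chosen after seeing the data. The other 34 values moved by less than the SD between spots, or within 1.5 times the count, but under normexp the median over the probes turned from -0.18 to 0.05 and the mean of the ABHD12B probes from -0.44 to 0.01. An alternative that names members by a gene name column could not be run, because no such column was used here. No paired analysis was possible because there was 1 array in each group. The dim signals of LINC-ROR, HHLA1 and ABHD12B limit what these arrays can show of them.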
